A study of Homo sapiens with 8 samples.

Results

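Siglecs are cell surface receptors that bind sialic acid, the sugar that caps many glycans on the surface of cells. Most of those on myeloid cells carry inhibitory motifs in their tails that recruit phosphatases, and they restrain activation when they meet sialylated ligands. SIRPA is an inhibitory receptor of another family, found on macrophages and other myeloid cells, and its ligand CD47, carried by nearly all cells, signals that a cell should not be engulfed. Several of these proteins are studied as targets of antibodies in leukemia, above all CD33 and CD47. The 8 genes described here are CD33, SIGLEC1, SIGLEC5, SIGLEC7, SIGLEC9 and SIGLEC10, which encode Siglecs, and SIRPA and CD47. They were chosen by symbol, with earlier results of these data known. All 8 were found among the 26364 genes of the deposited table and passed the filter on low values that 14151 genes passed.

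RNA was sequenced from MV4-11, a human acute myeloid leukemia (AML) cell line that carries FLT3-ITD and MLL-AF4. The 4 groups received DMSO (control), TCP at 5 µM, palbociclib at 0.5 µM, or palbociclib and TCP together at these doses (the combination), and each group had 2 libraries. TCP is tranylcypromine, an inhibitor of the histone demethylase LSD1, and palbociclib inhibits the cell cycle kinases CDK4 and CDK6. The labels give 4 days of treatment for each group, whereas the methods of the study give, for treatments in culture, 1 day of the CDK6 inhibitor alone followed by 3 days of both molecules. All groups came from 1 cell line, and the methods state that the AML lines were grown on HS-5 human stromal cells, which the labels of these libraries do not name.

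Values are TPM, a level per gene length that the scaling makes sum to 1000000 in each library. Differences are on the log2(TPM + 1) scale, so they understate the change of low genes. A gene was called where the difference was at least 1 on this scale and the limma p-value, adjusted by the Benjamini-Hochberg method over all genes tested, was below 0.01. For 1 gene with 2 libraries a group, the smallest two-sided p of an exact permutation test is 0.333. Limma can pass this limit because it assumes normal errors, and it also borrows the spread of the other genes.

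The libraries held between 13320 and 13640 genes at 1 TPM or more. The 10 most abundant entries took 14.0% to 15.8% of the TPM with palbociclib or the combination and 9.12% to 9.67% in the other libraries. Of 13 hematopoietic markers 12 reached 1 TPM, and their summed level was between 2804 and 3587 TPM in every library. Palbociclib replicate 2 stood apart in stromal markers. It held 22.2 TPM of COL1A1, 15.3 TPM of COL1A2 and 17.6 TPM of COL3A1, which encode fibrillar collagens, against 1.32, 0.70 and 0.45 TPM in palbociclib replicate 1. The 18 stromal markers summed to 26.0 to 40.8 TPM in control, 38.3 to 44.4 TPM with TCP, 37.0 and 179.6 TPM with palbociclib and 53.0 to 70.0 TPM with the combination. None of the 9 stromal markers tested was called by limma in any of the 7 comparisons, and at most 1 had an unadjusted p below 0.05. POSTN was listed at 0 in all libraries, and each of the 6 defining markers was above 0 in at least 1 library. Many differences that involve the palbociclib group are therefore also given without palbociclib replicate 2, though not all of them. In these bulk samples, fewer cells of a type and less RNA per cell cannot be told apart.

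All Siglec genes here but SIGLEC1 lie in 1 cluster on chromosome 19 (GRCh37). They are SIGLEC9 at chr19:51628163-51639908, SIGLEC7 at chr19:51645556-51656783 and CD33 at chr19:51728320-51747115 on the plus strand, and SIGLEC10 at chr19:51913274-51921057 and SIGLEC5 at chr19:52114213-52133654 on the minus strand. SIGLEC1 is at chr20:3667617-3693247 on the minus strand, SIRPA at chr20:1874813-1921238 on the plus strand and CD47 at chr3:107761938-107810709 on the minus strand. Copies of these genes are close in sequence. SIGLEC7 and SIGLEC9 are neighbours, and the 200 bases before their canonical transcript starts are printed because SIGLEC7 was called with palbociclib and SIGLEC9 was not. The windows are chr19:51627963-51628162 for SIGLEC9 and chr19:51645358-51645557 for SIGLEC7, both on the plus strand and read 5′ to 3′ from GRCh37. Capitals mark a match to GAGGAA, a sequence that the myeloid factor SPI1 is known to bind, searched on both strands.

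SIGLEC9: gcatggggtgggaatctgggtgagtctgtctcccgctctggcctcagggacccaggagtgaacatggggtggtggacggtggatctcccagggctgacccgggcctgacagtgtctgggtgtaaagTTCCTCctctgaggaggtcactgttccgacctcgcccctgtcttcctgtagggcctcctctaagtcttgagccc

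SIGLEC7: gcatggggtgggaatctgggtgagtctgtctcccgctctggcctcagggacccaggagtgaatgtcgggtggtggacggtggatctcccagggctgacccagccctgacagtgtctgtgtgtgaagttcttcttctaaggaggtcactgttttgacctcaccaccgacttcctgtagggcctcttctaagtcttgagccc

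These windows were identical at 183 of 200 bases (91.5%). The SIGLEC9 window held 1 match to GAGGAA, on the minus strand at positions 127 to 132 counted from 1 at the 5′ end, and the SIGLEC7 window held none, with the substitution C130T (SIGLEC9 base first) inside the match. Such a match stood in the same window of 3 of the 8 genes (CD33, SIGLEC1 and SIGLEC9) and of 18.8% of 19894 coding genes. The CEBP-type letters TTGCNNAA, also searched on both strands, were found in the window of 1 of the 8, SIGLEC1, and of 5.39% of coding genes. The interferon-type pattern of GAAA repeated after a gap of 2 bases, on either strand, was found in none of the 8 windows and in 2.19% of coding genes. A match describes the letters alone, and the shorter GGAA stands in both the SIGLEC9 and the SIGLEC7 window.

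SIGLEC5 and its neighbour SIGLEC14, an activating relative, form a second near copy. Their upstream windows, chr19:52133655-52133854 and chr19:52150079-52150278 on the minus strand, aligned over 194 bases with 189 identical (97.4%). They are printed to show how close the copies are. The windows lie outside the canonical transcripts, so they do not show how far reads of the pair could be told apart. Neither holds a match to the 3 motifs.

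SIGLEC5: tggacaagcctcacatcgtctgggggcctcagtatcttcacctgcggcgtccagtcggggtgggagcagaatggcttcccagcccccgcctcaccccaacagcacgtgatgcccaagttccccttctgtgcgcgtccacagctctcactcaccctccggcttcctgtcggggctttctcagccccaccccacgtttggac

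SIGLEC14: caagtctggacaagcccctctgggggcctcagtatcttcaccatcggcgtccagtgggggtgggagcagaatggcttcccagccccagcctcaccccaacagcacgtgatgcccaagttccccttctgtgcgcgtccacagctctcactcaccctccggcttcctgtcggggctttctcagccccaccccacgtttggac

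The closeness extends into the transcripts. Of the 50-base windows of the canonical SIGLEC5 transcript, 23.1% also occurred in a SIGLEC14 transcript. For SIRPA the share found in transcripts of any other gene was 13.4%, mostly SIRPB1, and for SIGLEC10 it was 10.7%, mostly SIGLEC11. It was 2.62% for CD33, 1.7% for SIGLEC9, 0.587% for SIGLEC7 and 0 for SIGLEC1 and CD47. How reads shared by several genes were counted is not given in the sources used here, so the values of SIGLEC5, SIRPA and SIGLEC10 are the least certain as levels of single genes. SIGLEC10 also overlaps 2 antisense genes, and SIGLEC7 and SIRPA each overlap 1 noncoding gene on the other strand. SIGLEC7 overlaps a transcribed pseudogene on its own strand as well. SIGLEC5 overlaps a processed pseudogene on the other strand and a noncoding entry of the same symbol and strand that also spans SIGLEC14. The strand setting of the counting is not given, so reads of these genes and of those they overlap cannot be told apart.

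In control cells, CD33 was the highest of the 8 genes, with a mean of 106 TPM ± 4.88 (SD, n = 2). SIRPA followed with 61.6 TPM ± 6.53 and CD47 with 34.4 TPM ± 1.17. The other Siglecs were low, SIGLEC7 at 7.94 TPM, SIGLEC1 at 5.43 TPM, SIGLEC10 at 5.40 TPM, SIGLEC9 at 3.59 TPM and SIGLEC5 at 1.47 TPM. The libraries of SIGLEC1 overlapped those of SIGLEC7, SIGLEC10 and SIGLEC9, and the other neighbours in this order were separated in both libraries. With TCP the first 4 places were held by the same genes, and SIGLEC9 followed at 7.02 TPM, above SIGLEC10, SIGLEC1 and SIGLEC5. With palbociclib, SIRPA at 149 TPM overlapped CD33 at 136 TPM, and SIGLEC7 at 30.8 TPM overlapped CD47 at 26.9 TPM. With the combination, SIRPA at 155.5 TPM stood above CD33 at 134 TPM in both libraries, SIGLEC7 followed at 48.1 TPM, and CD47 at 26.4 TPM overlapped SIGLEC1 at 26.2 TPM. SIGLEC9 at 15.1 TPM stood above SIGLEC10 at 7.62 TPM and SIGLEC5 at 5.97 TPM, which overlapped.

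Palbociclib and the combination were each compared with control to find which of the receptors differed after CDK4/6 inhibition with and without the LSD1 inhibitor. SIGLEC5, SIGLEC7 and SIRPA rose with palbociclib, and these genes and SIGLEC9 rose with the combination. None of the 8 was called lower. Thus 3 of 8 were called with palbociclib, where 9.1% of all genes tested were called, 4.54% higher and 4.56% lower. With the combination 4 of 8 were called, where 13.7% of all genes were called, 5.87% higher and 7.82% lower. The median difference of the 8 genes was 0.77 with palbociclib and 1.41 with the combination, against -0.16 and -0.22 over all genes tested. Both libraries lay above both control libraries for 5 of 8 genes with palbociclib, as for 26.5% of all genes, and for 7 of 8 with the combination, as for 26.0%. Both lay below for 1 of 8, CD47, under either treatment, as for 49.7% and 54.2% of all genes. The comparisons share the control libraries. Since the 8 genes were chosen with earlier results of these data known, these counts are descriptions and not a test of the family. With median-ratio scaling, the median over all genes with the combination moved to -0.01, and 1105 genes were called higher and 680 lower, against 830 and 1107 as deposited.

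SIGLEC7, an inhibitory receptor best known on natural killer cells and monocytes, had the largest difference of the 8 under either treatment with all libraries fitted. With the combination this order over SIGLEC1 (2.23) turned without control replicate 1, where SIGLEC1 gave 2.95 and SIGLEC7 gave 2.34. Its level was 7.21 and 8.68 TPM in control (replicates 1 and 2), 11.4 and 12.2 TPM with TCP, 26.9 and 34.8 TPM with palbociclib, and 42.7 and 53.5 TPM with the combination. The 4 groups did not overlap. The log2 difference from control was 1.82 with palbociclib (SE 0.17, limma adjusted p = 0.000337) and 2.45 with the combination (95% interval 2.06 to 2.84, limma adjusted p = 6.75e-05). Without palbociclib replicate 2 the palbociclib difference was 1.64 (limma adjusted p = 0.0036).

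SIRPA rose from 57.0 and 66.2 TPM in control to 132 and 166 TPM with palbociclib and to 141 and 169.9 TPM with the combination. TCP alone gave 54.8 and 65.5 TPM, which overlapped control. The difference was 1.25 with palbociclib (SE 0.16, limma adjusted p = 0.00102) and 1.32 with the combination (SE 0.16, 95% interval 0.95 to 1.69, limma adjusted p = 0.000541). Without palbociclib replicate 2 the first of these was 1.09 (limma adjusted p = 0.00879).

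SIGLEC5, an inhibitory receptor of myeloid cells, was the lowest of the 8 in control. It had 1.30 and 1.63 TPM there, 1.32 and 1.30 TPM with TCP, 3.43 and 4.48 TPM with palbociclib, and 5.39 and 6.55 TPM with the combination. Both palbociclib libraries lay above control and both combination libraries above palbociclib. The difference was 1.497 with the combination (SE 0.17, limma adjusted p = 0.000492). With palbociclib it was 1.001, at the threshold (SE 0.17, limma adjusted p = 0.00372), and this call was lost without palbociclib replicate 2 (0.85, limma adjusted p = 0.0297), without control replicate 1 (0.90, limma adjusted p = 0.0266), without control replicate 2 (limma adjusted p = 0.0157) and when only those groups were fitted (limma adjusted p = 0.0106). Summed with SIGLEC14, the level was 3.89 and 4.17 TPM in control and 4.10 and 3.78 TPM with TCP. It was 13.4 and 14.8 TPM with palbociclib and 15.2 and 18.3 TPM with the combination. TPM divide by gene length, and the canonical transcripts of SIGLEC5 and SIGLEC14 hold 2993 and 5134 bases. Reads exchanged between the pair can therefore change this sum.

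SIGLEC9 is an inhibitory receptor of monocytes and neutrophils. Control held 3.25 and 3.93 TPM, TCP 6.78 and 7.27 TPM, palbociclib 2.39 and 5.39 TPM, and the combination 11.7 and 18.5 TPM. Palbociclib overlapped control and TCP did not. The combination lay above every other library. Against control its difference was 1.78 (SE 0.32, 95% interval 1.03 to 2.54, limma adjusted p = 0.0033), whereas palbociclib alone gave 0.02 (interval -0.73 to 0.78, limma adjusted p = 0.959), or -0.43 without palbociclib replicate 2. The combination call was lost without control replicate 1 (limma adjusted p = 0.0223), control replicate 2 (0.0151) or combination replicate 2 (1.47, 0.0244), and with no filter on low values (limma adjusted p = 0.0105).

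CD33, the most abundant Siglec of these cells and the target of an approved antibody-drug conjugate, moved less than the threshold. Its level was 109.7 and 103 TPM in control, 108 TPM in each TCP library, 141 and 132 TPM with palbociclib, and 132 and 136 TPM with the combination. The libraries with palbociclib all lay above those without it. The difference was 0.36 with palbociclib (SE 0.07, limma adjusted p = 0.00691) and 0.33 with the combination (limma adjusted p = 0.00707), which passed the threshold on p but not the one on fold. Without palbociclib replicate 2 the first was 0.41 and did not pass on p (limma adjusted p = 0.0234). With median-ratio scaling the combination gave 0.56. Genes with an adjusted p below 0.01 at any fold made up 27.3% of those tested with palbociclib and 36.0% with the combination.

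SIGLEC1, also named sialoadhesin, binds sialic acid without an inhibitory motif and is known from macrophages and from interferon responses. It varied most between replicates, with 8.40 and 2.46 TPM in control, 6.28 and 1.26 TPM with TCP, 5.57 and 18.3 TPM with palbociclib, and 20.8 and 31.7 TPM with the combination. Replicate 1 was the higher in control and TCP and replicate 2 in the other groups. Both combination libraries lay above every other library. The difference from control, 2.23 with the combination, had a wide interval of 0.46 to 4.00 and was not called (limma adjusted p = 0.0405). With palbociclib it was 0.98 (SE 0.75, limma adjusted p = 0.319), and 0.20 without palbociclib replicate 2, the library with the most stromal transcripts. The part of these transcripts in the SIGLEC1 values was not tested.

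SIGLEC10 is an inhibitory receptor with CD24 as a known ligand. It had 5.27 and 5.53 TPM in control and 5.16 and 5.27 TPM with TCP. Levels were 6.88 and 10.2 TPM with palbociclib and 6.15 and 9.08 TPM with the combination. Libraries with palbociclib lay above those without it, and replicate 2 was the higher in both groups. The difference was 0.56 with palbociclib (limma adjusted p = 0.0736) and 0.41 with the combination (95% interval -0.10 to 0.92, limma adjusted p = 0.151), and neither was called. Without palbociclib replicate 2 the first was 0.30 (limma adjusted p = 0.358), and with each replicate left out the second ranged from 0.16, without combination replicate 2, to 0.66, without combination replicate 1.

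CD47, the ligand of SIRPA, had 35.2 and 33.6 TPM in control, 38.3 and 30.6 TPM with TCP, 26.5 and 27.3 TPM with palbociclib, and 26.7 and 26.2 TPM with the combination. All 4 libraries with palbociclib lay below the 4 without it. The difference from control was -0.34 with palbociclib (limma adjusted p = 0.0444) and -0.37 with the combination (95% interval -0.64 to -0.10, limma adjusted p = 0.0299), which was not a call. Beside the median of -0.22 over all genes it was small, and with median-ratio scaling it was -0.14 with the combination (limma adjusted p = 0.266).

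**Figure D1:**
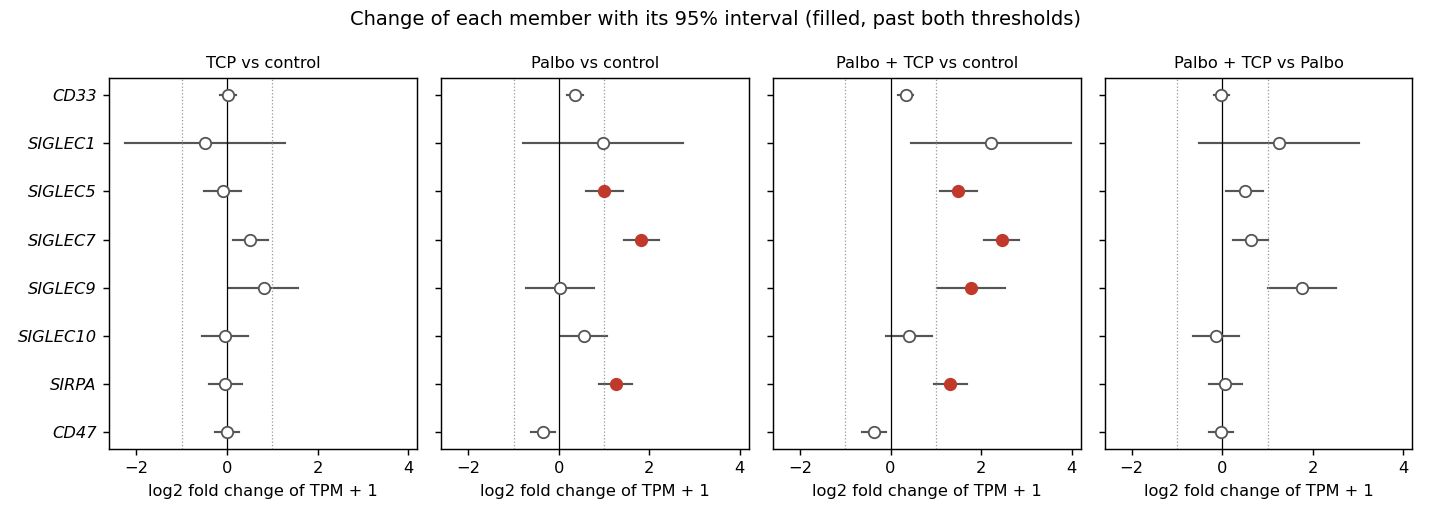
Difference in log2(TPM + 1) (horizontal axes) of the 8 genes with its 95% interval, one panel per comparison, with filled points for calls and dotted lines at differences of 1 and -1. Filled points stand for SIGLEC5, SIGLEC7 and SIRPA with palbociclib and for these and SIGLEC9 with the combination, and no point is filled for TCP alone or for the combination against palbociclib.

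Summed over the genes, the balance of the receptors differed between the groups. The 6 Siglecs together had 135.2 and 125.1 TPM in control, 139.2 and 135.0 TPM with TCP, 186.2 and 204.8 TPM with palbociclib, and 218.8 and 255.8 TPM with the combination. CD33 made up 81.2% and 82.2% of this sum in control, 77.8% and 79.8% with TCP, 75.8% and 64.3% with palbociclib, and 60.4% and 53.3% with the combination. The ratio of SIRPA to CD47 was 1.62 and 1.97 in control and 1.43 and 2.14 with TCP. It was 5.00 and 6.06 with palbociclib and 5.29 and 6.49 with the combination, so the libraries with and without palbociclib did not overlap. These sums are descriptions and were not tested.

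TCP alone was compared with control to ask what LSD1 inhibition gave without palbociclib. By limma, 0 of the 8 genes were called, where 0.0565% of all genes (8 genes) were called. At an unadjusted p below 0.05 there were 2 of the 8, SIGLEC7 and SIGLEC9, and 1241 of all genes tested. These were also the members whose TCP libraries lay above both control libraries, as did those of 12.4% of all genes tested. The difference was 0.52 for SIGLEC7 (SE 0.17, limma adjusted p = 0.383) and 0.81 for SIGLEC9 (95% interval 0.05 to 1.56, limma adjusted p = 0.525). For CD33 it was 0.02 (interval -0.15 to 0.19) and for SIRPA -0.04 (interval -0.40 to 0.33), intervals that hold no difference as large as the threshold.

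The combination was compared with palbociclib to ask what TCP added to CDK4/6 inhibition. SIGLEC9 had the largest difference, 1.76 (SE 0.32, 95% interval 1.001 to 2.51), which was not called (limma adjusted p = 0.0358). With the replicate number as a block, which pairs libraries of the same number, SIGLEC9 was called (limma adjusted p = 0.00883). Thus 0 of 8 genes were called by limma, and 1 of 8 with the block, where 0.502% of all genes were called (71 genes, and 114 with the block). At an unadjusted p below 0.05 there were 3 of the 8 and 2472 of all genes. SIGLEC7 gave 0.63 (95% interval 0.24 to 1.02, limma adjusted p = 0.102) and SIGLEC5 gave 0.50 (interval 0.09 to 0.90, limma adjusted p = 0.201). SIGLEC1 gave 1.245 (interval -0.53 to 3.02, limma adjusted p = 0.451). Without palbociclib replicate 2 the differences were 2.21 for SIGLEC9, 2.02 for SIGLEC1, 0.81 for SIGLEC7 and 0.65 for SIGLEC5. For 4 of the 8, SIGLEC1, SIGLEC5, SIGLEC7 and SIGLEC9, both combination libraries lay above both palbociclib libraries, as did those of 16.6% of all genes. SIRPA gave 0.06 (interval -0.30 to 0.43, limma adjusted p = 0.877) and CD33 gave -0.02 (limma adjusted p = 0.912).

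Against TCP, the combination raised SIGLEC7 by 1.94 (limma adjusted p = 0.000176), SIGLEC5 by 1.59 (limma adjusted p = 0.000442) and SIRPA by 1.36 (limma adjusted p = 0.000557). These were 3 of the 8 genes, where 12.2% of all genes were called. SIGLEC9 gave 0.97 (limma adjusted p = 0.0396), under the threshold on both counts, and SIGLEC1 gave 2.72 (limma adjusted p = 0.021). Palbociclib against TCP gave the same 3 calls, with differences of 1.31 for SIGLEC7, 1.09 for SIGLEC5 and 1.29 for SIRPA, where 9.21% of all genes were called. The SIGLEC5 call of that comparison was lost without palbociclib replicate 2 (0.94, limma adjusted p = 0.0225), without TCP replicate 1 (0.0106) or TCP replicate 2 (0.0114), and when only those groups were fitted (0.0128). SIGLEC9 was lower with palbociclib than with TCP in both libraries, by a difference of -0.78 that was not called (limma adjusted p = 0.0862). Without palbociclib replicate 2 this difference was -1.24.

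Whether the 2 molecules together gave more than the sum of their differences was tested as an interaction on the log2 scale. By limma, 0 of the 8 genes and 0 of all genes (0.0%) were called. At an unadjusted p below 0.05 there were 1 of the 8, SIGLEC5, and 904 of all genes. The interaction was largest for SIGLEC1, at 1.74 with a wide 95% interval of -0.77 to 4.24 (limma adjusted p = 0.913). It was 0.95 for SIGLEC9 (95% interval -0.12 to 2.02, limma adjusted p = 0.83), 0.59 for SIGLEC5 (interval 0.01 to 1.16, limma adjusted p = 0.775) and 0.11 for SIGLEC7 (interval -0.44 to 0.66). The intervals of SIGLEC1, SIGLEC9 and SIGLEC7 hold 0 and that of SIGLEC5 lies just above it. Those of SIGLEC1, SIGLEC9 and SIGLEC5 also hold values larger than the threshold. The difference in response between SIGLEC9 and SIGLEC7 was not tested.

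The other Siglecs and the genes between them on chromosome 19 were set beside the 8 genes. Between the starts and ends of the outermost genes (chr19:51628163-52150078) lie 20 coding genes, of which 9 are Siglecs and 8 of those were tested. With the combination 5 of the 8 were called higher (SIGLEC5, SIGLEC7, SIGLEC9, SIGLEC12 and SIGLEC14), beside 5.87% of all genes tested, and with palbociclib 4, beside 4.54%. Of the 11 other coding genes 5 were tested, and none of the 5 was called by limma in any of the 7 comparisons, with at most 2 at an unadjusted p below 0.05. With 13.7% of all genes called under the combination and 9.1% under palbociclib, a count of 0 of 5 is near the background. NKG7, a granule protein of cytotoxic cells, came closest with 0.80 with palbociclib and 0.73 with the combination, and it was picked out after its values were seen. SIGLEC12 was at 22.4 and 26.2 TPM in control, 20.2 and 26.3 TPM with TCP, 56.9 and 65.5 TPM with palbociclib, and 46.5 and 56.5 TPM with the combination, and its difference was 1.30 with palbociclib and 1.05 with the combination. SIGLEC14 rose from 2.59 and 2.54 TPM to 9.93 and 10.3 TPM with palbociclib and to 9.78 and 11.7 TPM with the combination, by 1.64 and 1.72. Over the whole list of 9 other Siglecs, 4 were tested, 2 rose and 0 fell under either treatment, and 0 of 4 were called with TCP.

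The relatives of SIRPA and the partners of CD47 were described as a list of 11 genes in the table, all of them tested. With palbociclib and with the combination 5 of 11 rose and 0 fell, and the median was 0.61 and 0.63. Over all genes tested, 4.54% and 5.87% were called higher and 4.56% and 7.82% lower. With TCP 0 of 11 were called, where 0.0565% of all genes were called. THBS1 encodes thrombospondin, a secreted ligand of CD47, and it went from 34.7 and 36.3 TPM in control to 728 and 942 TPM with palbociclib and 1261 and 1454 TPM with the combination, by 4.50 and 5.21. The SIRP family members SIRPB2, SIRPB1 and SIRPD rose with the combination by 2.80, 2.25 and 1.99. SIRPB1, an activating receptor whose transcript shares sequence with SIRPA, went from 3.80 and 5.58 TPM in control to 24.4 and 27.1 TPM with the combination, which is small beside the 141 and 169.9 TPM of SIRPA. The other gene called was FYB, an adaptor, with 1.46. QPCTL, the enzyme that modifies the CD47 amino terminus for SIRPA binding, gave 0.24 with the combination (limma adjusted p = 0.212). FYB and QPCTL were named after their values were seen.

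Of 14 phosphatases, kinases and adaptors that act behind inhibitory and activating receptors, 5 rose with palbociclib and 6 with the combination, 0 fell, and 0 were called with TCP. The median was 0.72 with palbociclib and 0.84 with the combination. Beside these counts, 4.54% of all genes tested were called higher and 4.56% lower with palbociclib. The shares were 5.87% and 7.82% with the combination, and 0.0565% were called with TCP. FGR, a SRC-family kinase of myeloid cells, rose from 19.8 and 22.0 TPM to 216.5 and 229 TPM with the combination, by 3.35. TYROBP, the adaptor through which activating members such as SIGLEC14 and SIRPB1 signal, rose by 2.39, LYN by 1.595 and SOCS3 by 1.44. The phosphatases that bind the inhibitory motifs, named outside the rule, did not pass the threshold on fold. PTPN6 was at 426 and 444 TPM in control and 722 and 759.9 TPM with the combination, a difference of 0.77 (limma adjusted p = 0.000206), and PTPN11 gave -0.61 (limma adjusted p = 0.000617).

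**Figure D2:**
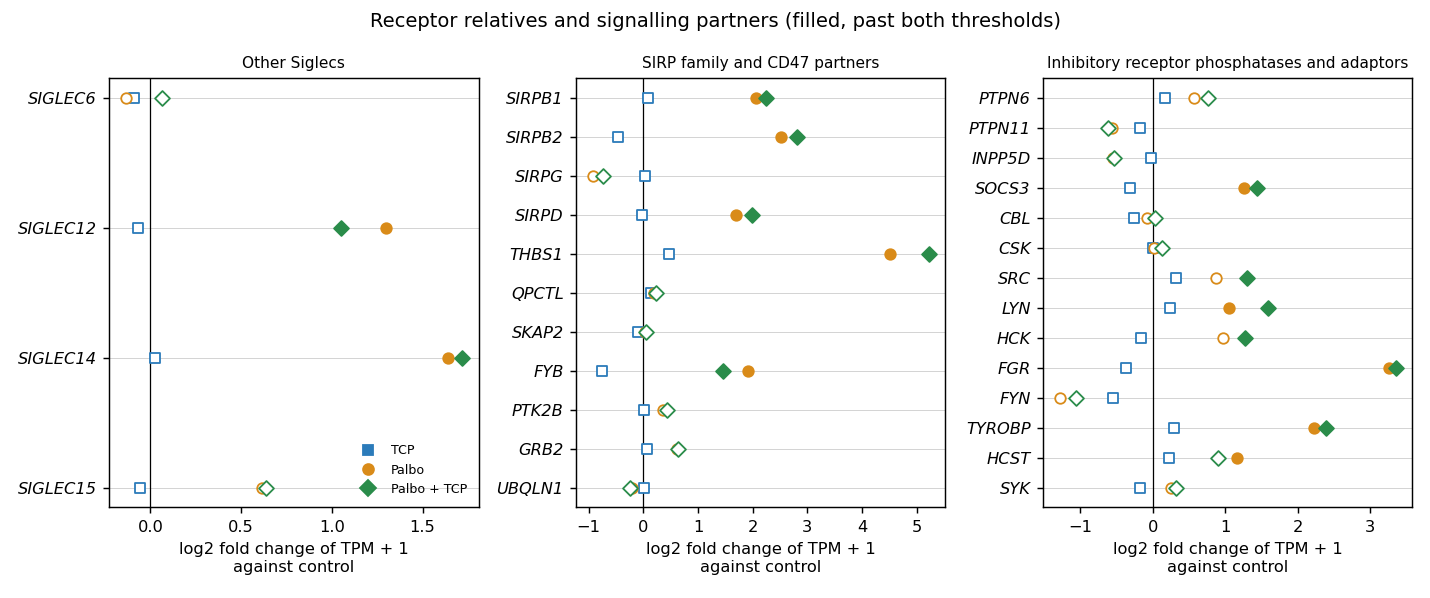
Difference from control in log2(TPM + 1) (horizontal axes) of the tested genes of 3 lists, with squares for TCP, circles for palbociclib and diamonds for the combination, filled for calls. No square is filled, and THBS1, FGR and SIRPB2 have combination values of 5.21, 3.35 and 2.80.

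The ligand side was less uniform. As before, the shares over all genes tested were 5.87% higher and 7.82% lower with the combination and 4.54% and 4.56% with palbociclib. For TCP 0.0565% were called. Of 23 tested genes of sialic acid synthesis, transfer and removal, 5 rose and 3 fell with the combination, 3 rose and 1 fell with palbociclib and 0 were called with TCP, and the median was -0.06 with the combination. The sialyltransferases ST3GAL6, ST8SIA6 and ST3GAL2 rose by 2.04, 1.54 and 1.27 and the sialic acid esterase SIAE by 1.75. Of 8 tested proteins that are known or proposed to bind Siglecs, 2 rose and 1 fell with the combination, 1 rose and 1 fell with palbociclib and 1 rose with TCP, and the combination median was 0.70. VCAN, a proteoglycan whose place in this list is uncertain, went from 0.78 and 1.16 TPM in control to 14.7 and 17.0 TPM with TCP, 2.86 and 2.79 TPM with palbociclib and 88.4 and 81.8 TPM with the combination, by 5.45. SELPLG rose by 1.44 and HMGB1, a nuclear protein that can be released, was lower by a called difference of -1.59. CD24, a known ligand of SIGLEC10 but not necessarily its only ligand, was at most 0.121 TPM in any library and was not tested.

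Genes of phagocytosis were the last list. Its counts stand beside the same shares of all genes, 5.87% higher and 7.82% lower with the combination and 4.54% and 4.56% with palbociclib. Of 23 tested, 10 rose and 1 fell with the combination, 5 rose and 0 fell with palbociclib and 0 were called with TCP, with combination and palbociclib medians of 0.62 and 0.23. MERTK, 1 of the 10, was at 0.34 to 0.61 TPM in the control and TCP libraries. It passed the filter on low values only through the libraries with palbociclib (1.28 to 2.10 TPM), so it could be counted only as a rise. CD36, a scavenger receptor, rose by 4.04 with the combination. LRP1, the receptor for surface calreticulin, rose by 3.63 and SLAMF7, a self-ligand in phagocytosis, by 3.62. FCGR2B, the inhibitory Fc receptor, rose by 3.26 with the combination and was not called with palbociclib, where it gave 0.15. FCGR2B was at 4.00 and 2.92 TPM in control, 23.7 and 8.89 TPM with TCP, 4.71 and 3.21 TPM with palbociclib and 41.5 and 41.2 TPM with the combination, an order of groups like that of SIGLEC9. The counts of 0 with TCP are from limma. At an unadjusted p below 0.05 there were 0 of 4 other Siglecs and 2 of 11 SIRP family genes and CD47 partners. At the same level there were 6 of 14 phosphatases, kinases and adaptors, 3 of 23 sialic acid genes and 7 of 23 phagocytosis genes. Over all genes tested there were 1241 of 14151.

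The genes whose pattern was closest to each called member were found by the root mean square difference of centred log2(TPM + 1) over the 8 libraries. For SIRPA they were ST3GAL2 at 0.0732, NCF4 at 0.084 and ARSA at 0.0851. For SIGLEC5 they were CXCR2P1 at 0.0797, CLEC4D at 0.0899 and S100A6 at 0.0902. For SIGLEC7 they were PSTPIP1 at 0.114, LOC101928517 at 0.149 and KIFC3 at 0.163. SIGLEC9 had the most distant neighbours of the 4, CTSH at 0.194, SULF2 at 0.214 and ACOX2 at 0.219. Some neighbours were low, with means over the 8 libraries of 1.25 TPM for CXCR2P1, 0.79 for CLEC4D, 1.54 for SULF2 and 1.10 for ACOX2. The scale understates differences at such levels. Among the 8 genes themselves, SIGLEC5 and SIRPA were the closest pair at 0.168, whereas SIGLEC9 and SIGLEC7 were 0.82 apart.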

How the data were processed

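RNA from the 8 libraries was prepared with a stranded mRNA kit, per the labels. The authors mapped reads to hg19 (GRCh37) with subread-align and counted them per gene with featureCounts 1.6.4, and the deposited values are the TPM they computed. DESeq2 1.26.0 and SAMtools 1.9 are also named in the submitters' processing notes. The annotation, gene lengths, strand setting and treatment of reads shared by several genes are not given in the sources used here. The methods name a pair of sequencing facilities without saying which libraries each sequenced. TPM keep no read depth, so the depth is unknown and no counting interval is given.

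Groups and replicate numbers come from the labels, which do not say whether replicates were separate cultures. The p-values then measure only the spread between these libraries, which may be technical. Genes that reached 1 TPM in 2 or more libraries were kept. The log2(TPM + 1) values of the 8 libraries were fitted together in limma 3.58.1 (R 4.3.3) as 4 group means, with a mean-variance trend and 4 residual degrees of freedom, and p-values were adjusted by the Benjamini-Hochberg method over all 14151 genes. The script was tested on simulated data. The authors' use of DESeq2 on counts was not repeated, since the deposited values are TPM.

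All 8 members are named, and of each further list up to 4 genes with the largest absolute difference under the combination among those called there, plus for each called member the 3 tested genes nearest in pattern. The members and the lists were chosen with earlier results of these data known. Coordinates, transcripts and the 200 upstream bases are from GRCh37 with the GENCODE annotation lifted to that build, which is not necessarily the one the authors counted on.

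The fit without a replicate term is the one reported, and a fit with the replicate number as a block is an alternative. The numbers were judged to pair the libraries, since libraries with 1 number departed from their groups in like directions, with positive correlations across genes for all 6 pairs of groups (0.169 to 0.491). The pairing comes from these values alone. Alternatives were a pseudocount of 0.1, no filter, a filter at a mean of 5 TPM, median-ratio scaling, quantile normalization, the replicate block, moderation without a trend, only the groups compared, an adjusted p below 0.05, and each replicate left out. Lymphoid and erythroid markers summed to at most 5.80 TPM in any library, and 0 of the 2 tested were called by limma with the combination against control, with 1 at an unadjusted p below 0.05. Of the 12 hematopoietic markers tested, 1 rose and 1 fell with the combination, beside 5.87% and 7.82% of all genes tested.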

Additional observations from a re-analysis of the deposited data

How the results depend on the processing

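The calls of SIGLEC7 and SIRPA with palbociclib and with the combination, against control and against TCP, held in all 17 alternatives, and the SIGLEC5 call with the combination against control in all 16 that could test it. SIGLEC9 with the combination was called in 13 of 17, and SIGLEC5 with palbociclib in 12 of 16. For the combination against palbociclib, the number of the 8 genes called was 0, and 1 with the replicate block and at an adjusted p below 0.05 (SIGLEC9 in each). The block changed no other call among the 8. At an adjusted p below 0.05, SIGLEC1 was also called with the combination against control and against TCP. SIGLEC5 had no value under a mean of at least 5 TPM. An adjusted p below 0.05 is a looser threshold on the same fit, so that alternative could lose no call. Leaving out a library of a group not compared changed the p-values but not the differences.

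Values near 0 changed sign, and none of them was a call. With quantile normalization and median-ratio scaling, TCP against control gave 0.0018 and 0.0088 for SIRPA and 0.0448 and 0.0376 for CD47, and the combination against palbociclib gave 0.0023 and 0.0437 for CD33 and 0.0443 and 0.0392 for CD47. The interaction of CD47 was 0.0016 with median-ratio scaling. With each replicate left out, TCP against control ranged from -0.0226 to 0.0701 for CD33, -1.34 to 0.35 for SIGLEC1, -0.19 to 0.0051 for SIGLEC5, -0.16 to 0.0902 for SIRPA and -0.16 to 0.15 for CD47. Palbociclib against control ranged from -0.43 to 0.48 for SIGLEC9. The combination against palbociclib ranged from -0.0712 to 0.0275 for CD33, -0.40 to 0.11 for SIGLEC10 and -0.0959 to 0.23 for SIRPA. The interaction ranged from -0.095 to 0.0037 for CD33, -0.0692 to 0.29 for SIGLEC7, -0.36 to 0.15 for SIGLEC10, -0.0598 to 0.26 for SIRPA and -0.18 to 0.14 for CD47. The cause was not tested.

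Over all genes, calls for TCP against control numbered 8, and from 0 to 36 in the alternatives (20 with the block). For the combination against palbociclib they numbered 71, from 38 to 183 with all libraries, from 31 to 52 without a control or TCP library, and 1 without either library of the palbociclib or combination group. Palbociclib gave 1288 against control and 787 to 1465, and 1304 against TCP and 813 to 1477. The interaction gave 0, and up to 7. Higher and lower calls were 643 and 645 with palbociclib against control, and 817 and 414 with median-ratio scaling. With 2 libraries a group and unknown depth, low genes such as SIGLEC5 and SIGLEC9 have the least certain values.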

Other observations

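SIGLEC1 was not called and so had no neighbours in the report. Its nearest patterns over the 8 libraries, found after its values were seen, were LGALS3BP at a root mean square difference of 0.465, KLF4 at 0.542 and IFI6 at 0.579, all more distant than the neighbours of the 4 called genes. LGALS3BP, a secreted protein that Siglecs can bind, had 21.1 and 9.70 TPM in control, 22.9 and 9.57 TPM with TCP, 37.9 and 67.1 TPM with palbociclib and 50.3 and 74.0 TPM with the combination. Replicate 1 was the higher in control and TCP and replicate 2 in the others, the same order as in SIGLEC1. SIRPG, the SIRP family member of lymphocytes, was at 2.48 and 2.01 TPM in control and 1.08 and 0.81 TPM with the combination, a difference of -0.74 that was not called (limma adjusted p = 0.0276). SPN, which encodes the heavily sialylated protein CD43, was at 174 to 275.5 TPM in the 8 libraries and was not called in the comparisons with control. CALR, which encodes calreticulin, gave 0.48 with palbociclib and 0.37 with the combination, and neither was called.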
